A study of Mus musculus with 8 samples.

Results

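The genes described here encode the intermediate filaments of neurons and of their progenitors: Nefl, Nefm, Nefh, Ina, Prph, Vim and Nes. They were chosen by name, and all probe sets of the deposited table whose platform annotation gives one of these names and no other were taken. This gave 17 probe sets for the 7 genes, out of 45037 probe sets other than controls, which name 18193 genes alone. A probe set is a group of short oligonucleotides that together read 1 transcript on the Affymetrix Mouse Genome 430 2.0 array.

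Total RNA from mouse was measured on 8 arrays, 4 labelled Exp and 4 labelled Ctrl, each numbered 1 to 4. The labels state no genotype, strain, treatment, age or sex for either group and do not say what the Exp samples underwent, nor what both groups share. Of the label fields that name a tissue, the sample description gives the trigeminal ganglion, which holds the sensory neurons of the face, while the source gives brain with adrenal medulla. Nothing states that the 4 arrays of a group came from separate animals, so a p-value reflects array-to-array spread that could be technical.

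Intermediate filaments are rope-like polymers of the cytoskeleton, built from coiled rod-shaped subunits. Neurofilaments fill large axons and set their calibre. They are assembled from a light, a medium and a heavy chain, encoded by Nefl, Nefm and Nefh, together with alpha-internexin (Ina) in central neurons and peripherin (Prph) in peripheral ones. Vimentin (Vim) and nestin (Nes) are filaments of dividing progenitors. Vimentin is also found in fibroblasts, endothelium and Schwann cells, and nestin in developing muscle and blood vessels. In sensory ganglia Prph is known from small unmyelinated neurons, and Nefh from large myelinated ones.

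The neuronal filament genes had near-equal signals in the Exp and Ctrl samples. None of the 14 member probe sets with enough signal to be tested was called, and for Nefl, Nefm, Vim and the brightest Prph probe set the 95% intervals of the ratio of Exp over Ctrl all lay between 0.824 and 1.17. Each of these bright probe sets had a mean log2 signal above 15. At 15 or more the median SD within groups was 0.08 log2 units, against 0.23 over all tested probe sets. Whether signals this bright still follow the amount of RNA was not tested. One Ina probe set was low on the same-numbered array of both groups. The Nes and Nefh probe sets varied more from array to array than those of Nefl, Nefm and Vim, and their intervals were wider. These statements rest on deposited linear signals, taken as log2(signal + 16), quantile normalised across arrays and compared by limma, a linear model that borrows the spread across probe sets. A probe set was tested if its mean lay at or above the 40th percentile, a signal of about 333, and 27022 probe sets passed this filter. In bulk RNA, fewer cells of a type and less RNA per cell cannot be told apart.

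All 7 genes had at least 1 tested probe set. Nefl (2), Ina (3), Vim (3), Nefm (1) and Nefh (1) passed the filter in full, Prph passed with 2 of 4 and Nes with 2 of 3. Limma with Benjamini-Hochberg adjustment at a 5% false discovery rate called 0 of the 14, where 0.00370% of all tested probe sets were called, a single one that reads 1300017J02Rik. At an unadjusted p under 0.05 the count was 0 of 14, against 4.69% of all tested, and in 0 of 14 did the 4 Exp arrays lie apart from the 4 Ctrl arrays, against 2.34% of all tested. The smallest unadjusted limma p among the members was 0.189 and every adjusted p was 0.999 or above. The difference was positive, that is higher in Exp, in 5 probe sets and negative in 9. The median of the brightest probe set per gene was -0.02 log2 units, beside -0.01 over the 12763 genes with a tested probe set. The median size of the difference, sign aside, was 0.03 over the members and 0.11 over all tested probe sets, a comparison not matched for signal level.

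**Figure D1:**
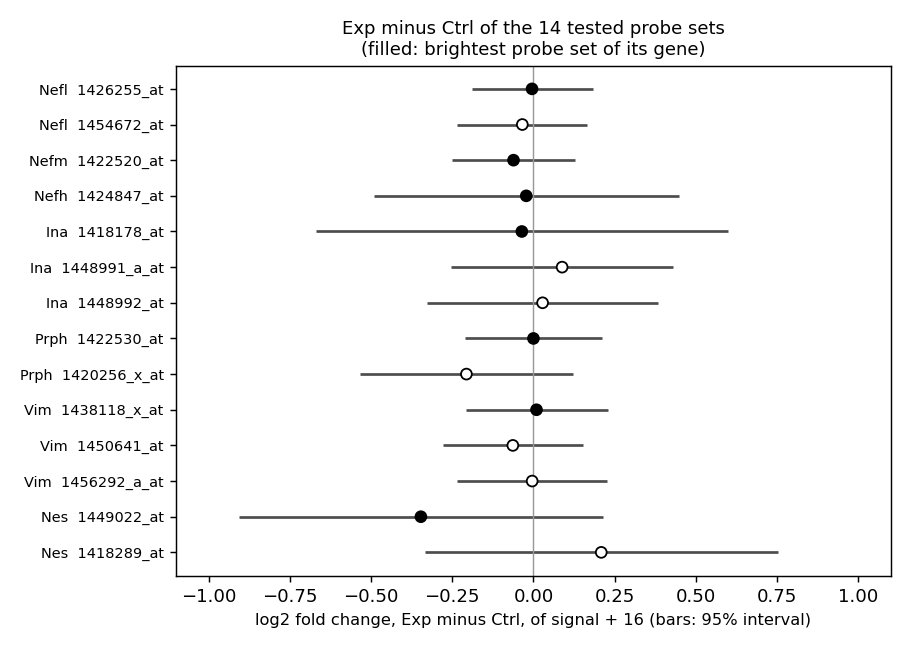
Log2 fold change, Exp minus Ctrl, of signal + 16 for the 14 tested probe sets (points) with the 95% confidence interval from limma (bars); filled points mark the brightest probe set of each gene. All 14 intervals include 0, and those of Nefl, Nefm, Vim and the main Prph probe set are the narrow ones.

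Nefl encodes the light chain, the subunit on which the other 2 neurofilament chains depend for assembly. Its probe set 1426255_at gave signals of 100514, 114467, 115656 and 125290.3 on Exp 1 to 4, against 111837, 99744, 107288 and 116148 on Ctrl 1 to 4. The groups overlapped, with the highest signal on Exp 4 and the lowest on Ctrl 2. The Exp mean was 113982 ± 10203 and the Ctrl mean 108754 ± 7012 (SD, n = 4 each). On the log2 scale after normalisation the means were 16.8 in both groups, a difference of -0.00 (-0.0042, SE 0.08, 95% interval -0.19 to 0.18, limma adjusted p = 0.999). As a ratio of Exp over Ctrl the interval ran from 0.876 to 1.13.

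The other Nefl probe set, 1454672_at, gave 85484, 89511, 99320.2 and 93382 on Exp 1 to 4 and 92225, 86061, 88899 and 91596 on Ctrl 1 to 4. Exp 3 was its highest array, and the groups overlapped. It differed by -0.03 (SE 0.09, 95% interval -0.23 to 0.17). Neither Nefl probe set separated the groups.

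Nefm encodes the medium chain, whose long tail projects from the filament. Its 1 probe set, 1422520_at, gave 72278, 79448, 84354 and 82009 on Exp 1 to 4, against 78637, 71293, 81599.7 and 85448 on Ctrl 1 to 4. The lowest and the highest of the 8 signals both came from Ctrl arrays. The difference was -0.06 log2 units (SE 0.08, 95% interval -0.25 to 0.13, limma adjusted p = 0.999), a ratio of Exp over Ctrl between 0.840 and 1.09.

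Nefh encodes the heavy chain, which joins neurofilaments as axons mature. Its probe set 1424847_at gave 2174, 2629.7, 3738 and 2977 on Exp 1 to 4, and 2365, 3776, 2948 and 2629 on Ctrl 1 to 4. The spread lay within the groups: Exp 3 and Ctrl 2 were high, and Exp 1 and Ctrl 1 were low. The signal was 2879.9 ± 660 in Exp and 2929.6 ± 613 in Ctrl (SD, n = 4 each). The difference of -0.02 log2 units (SE 0.21, 95% interval -0.49 to 0.45) left room for a ratio from 0.711 to 1.36, a wider range than for Nefl or Nefm. The sign of the Nefh difference was set by single arrays, at 0.12 without Exp 1 and -0.17 without Exp 3.

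Prph encodes peripherin, a filament of peripheral neurons that can assemble with neurofilament chains. The probe set annotated with its RefSeq transcript, 1422530_at, gave 69570, 74929, 76732 and 83490.3 on Exp 1 to 4, against 74172, 73707, 69409 and 71730.4 on Ctrl 1 to 4. Exp 4 was the highest array, Ctrl 3 the lowest, and the groups overlapped. The means were 76180.3 ± 5745 in Exp and 72255 ± 2173 in Ctrl (SD, n = 4 each), and after normalisation the log2 difference was 0.00 (SE 0.09, 95% interval -0.21 to 0.21, limma adjusted p = 1.00).

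The other Prph probe sets carry no accession in the annotation. Of these, 1420256_x_at was tested, and the suffix _x_ marks a probe set with probes that can also bind other transcripts. It gave 2642, 2765, 1819 and 2782 on Exp 1 to 4 and 2908, 2887, 2567 and 3146 on Ctrl 1 to 4, so that Exp 3 lay below every other array. The difference was -0.21 (SE 0.15, 95% interval -0.54 to 0.12, limma unadjusted p = 0.189), and it came to -0.08 without Exp 3. The remaining 2, 1449797_x_at and 1449796_at, were not tested because their means lay under the filter. Of these, 1449797_x_at gave 334, 398, 130 and 385 on Exp 1 to 4 and 281, 465, 148 and 353 on Ctrl 1 to 4, so that it was lowest on the arrays numbered 3 of both groups, at -1.38 and -1.16 log2 units from the other arrays of the group. For 1449796_at the signals ran from 62.3 to 278 on Exp arrays and from 96.7 to 266 on Ctrl arrays, and Exp 4 was lowest.

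**Figure D2:**
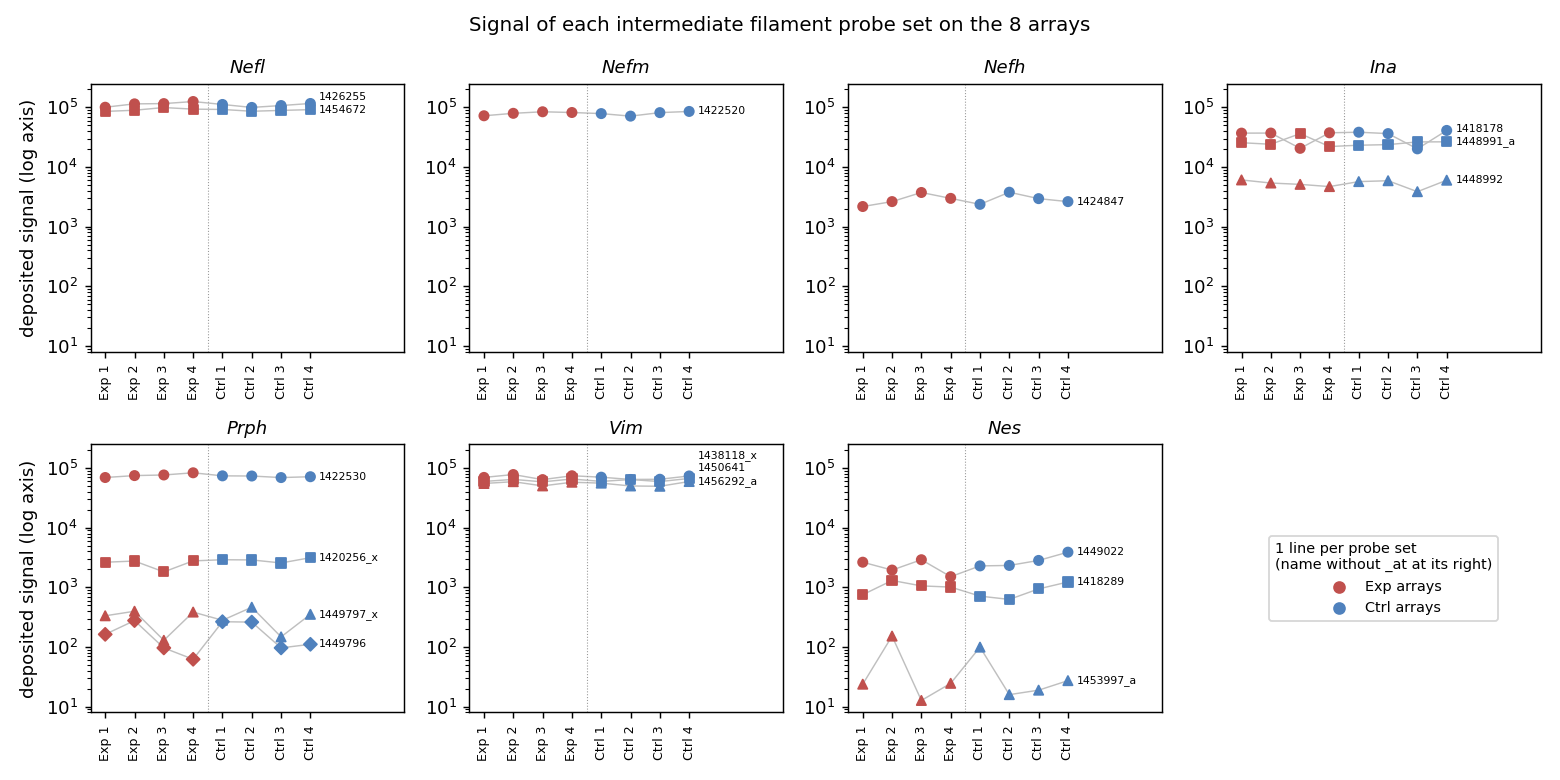
Deposited signal (log axis) of each of the 17 member probe sets on the 8 arrays, Exp 1 to 4 at the left and Ctrl 1 to 4 at the right of each panel; 1 line joins the values of 1 probe set and its marker shape sets it apart from others of the gene. The lines of Nefl, Nefm and Vim are nearly flat, Ina 1418178_at drops on Exp 3 and Ctrl 3, and the untested Prph and Nes probe sets lie lowest in their panels.

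Ina encodes alpha-internexin, a filament that appears early in neuronal differentiation, often before the neurofilament chains. Its 3 probe sets carry the same accession in the annotation, and they disagreed on single arrays. The probe set 1418178_at gave 36972, 37066, 20555 and 37447 on Exp 1 to 4, against 38304, 36315, 20159.7 and 41036 on Ctrl 1 to 4. Exp 3 and Ctrl 3 thus stood well below the other arrays, the lowest of which was Ctrl 2 at 36315. On the log2 scale Exp 3 lay -0.88 from the mean of the other Exp arrays, and Ctrl 3 lay -0.95 from the mean of the other Ctrl arrays.

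The other Ina probe sets did not repeat this pattern. For 1448991_a_at, whose suffix _a_ marks probes shared by several transcripts of a gene, the signals were 25534, 24070.2, 36256 and 22039 on Exp 1 to 4 and 23184, 23722, 26338 and 26432 on Ctrl 1 to 4. Here Exp 3 was the highest of the 8 arrays, 0.56 log2 units above the mean of the other Exp arrays, and Ctrl 3 lay 0.10 above the other Ctrl arrays. For 1448992_at the signals were 6066, 5387, 5113 and 4694 on Exp 1 to 4 and 5691, 5885, 3856 and 6004 on Ctrl 1 to 4. In this probe set Ctrl 3 was low, at -0.60 from the other Ctrl arrays, while Exp 3 lay only -0.06 from the other Exp arrays.

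Between the groups the Ina probe sets differed by -0.04 (1418178_at, SE 0.28, 95% interval -0.67 to 0.60), 0.09 (1448991_a_at, SE 0.15, -0.25 to 0.43) and 0.03 (1448992_at, SE 0.16, -0.33 to 0.39), with a limma adjusted p of 0.999 each. With both arrays numbered 3 left out, an alternative chosen after their low signals were seen, the difference of 1418178_at was -0.05 and its SE 0.11. That of 1448991_a_at was then -0.02 (SE 0.13) and that of 1448992_at -0.11 (SE 0.13). With Ctrl 3 alone left out the difference of 1418178_at was -0.27, and with Exp 3 alone left out it was 0.18. Its sign also turned with Ctrl 1 (0.04), Ctrl 2 (0.02) or Ctrl 4 (0.07) left out and with array weights (0.16).

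**Figure D3:**
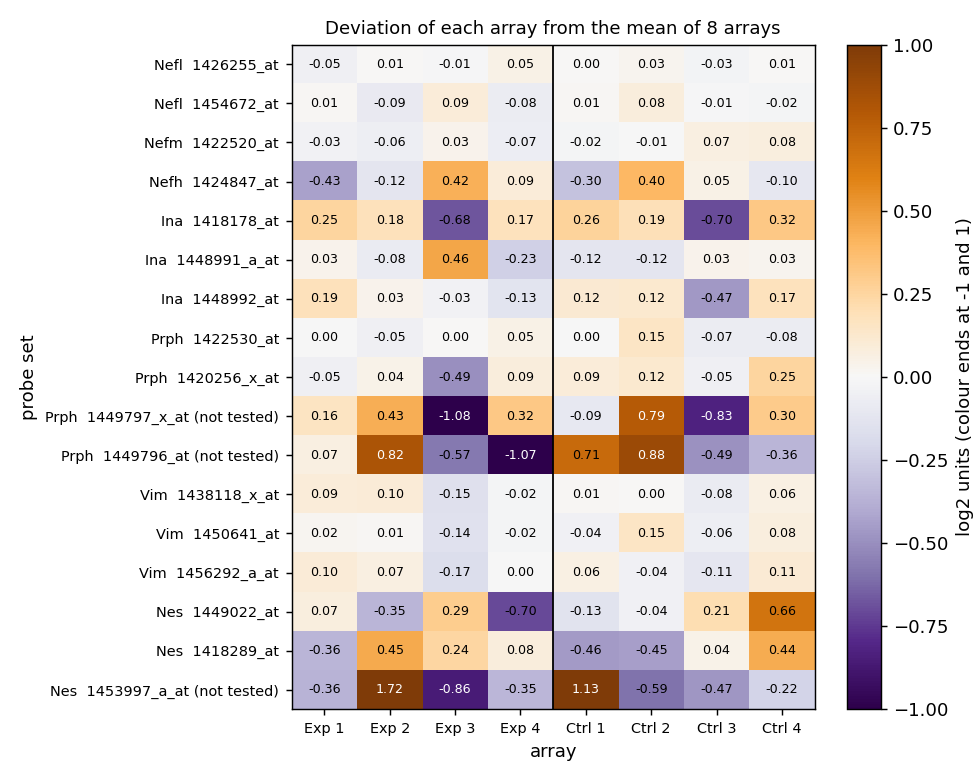
Deviation of each array from the mean of the 8 arrays, in log2 units after normalisation, for the 17 member probe sets (rows) on Exp 1 to 4 (left of the line) and Ctrl 1 to 4 (right of it); the number in each cell is the deviation, and the colours end at -1 and 1. Ina 1418178_at stands at -0.68 on Exp 3 and -0.70 on Ctrl 3, while Ina 1448991_a_at stands at 0.46 on Exp 3.

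Vim encodes vimentin, the filament of progenitors, glial precursors and connective tissue cells. Its 3 probe sets were each lowest of the 8 arrays on Exp 3 after normalisation. They parted on Ctrl 2, at 0.00 (1438118_x_at), 0.15 (1450641_at) and -0.04 (1456292_a_at) log2 units from the mean of the arrays. Of these, 1438118_x_at and 1456292_a_at carry the same accession in the annotation. For 1438118_x_at the signals were 69816, 78005, 64163 and 74452 on Exp 1 to 4, against 70455, 64508, 65038 and 73862 on Ctrl 1 to 4. The difference was 0.01 log2 units (SE 0.10, 95% interval -0.21 to 0.23), a ratio of Exp over Ctrl between 0.865 and 1.17. Exp 2 was highest and Exp 3 lowest, both within the Exp group, and the groups overlapped.

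The probe set 1450641_at of Vim ran from 58862 to 65662 on Exp arrays and from 59471 to 67107 on Ctrl arrays. It differed by -0.06 (SE 0.10, 95% interval -0.28 to 0.15). The probe set 1456292_a_at ran from 50304 to 59247 on Exp arrays and from 49603 to 59568 on Ctrl arrays, with a difference of -0.00 (-0.0038, SE 0.10, 95% interval -0.23 to 0.23). In each of the 3 Vim probe sets Exp 3 was the lowest Exp array after normalisation, at -0.21, -0.15 and -0.22 from the mean of the others, and Ctrl 3 the lowest Ctrl array, at -0.11, -0.12 and -0.15. These shifts were smaller than those of Ina 1418178_at.

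Nes encodes nestin, a large filament protein of neural and muscle progenitors. Its 2 tested probe sets, neither with an accession in the annotation, leaned opposite ways and neither was called. For 1449022_at the signals were 2644, 1952, 2909 and 1512 on Exp 1 to 4, against 2291, 2335, 2832 and 3896 on Ctrl 1 to 4. Exp 4 was the lowest and Ctrl 4 the highest of the 8, and the groups overlapped. The difference was -0.35 log2 units (SE 0.25, 95% interval -0.91 to 0.21, limma unadjusted p = 0.195).

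For 1418289_at of Nes the signals were 754, 1306.5, 1059 and 1012 on Exp 1 to 4 and 714, 628, 944 and 1233 on Ctrl 1 to 4. Exp 2 and Ctrl 4 were high, Ctrl 2 was low, and the difference was 0.21 (SE 0.24, 95% interval -0.33 to 0.75, limma unadjusted p = 0.407). The mean of both tested Nes probe sets differed by -0.07 (SE 0.20). The probe set 1453997_a_at was under the filter, with signals between 12.7 and 152 on Exp arrays and between 15.9 and 99.5 on Ctrl arrays.

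The spread between arrays of a group differed widely among the members. After normalisation the pooled SD within groups was 0.03 and 0.07 log2 units for the Nefl probe sets, 0.05 for Nefm, 0.08 for Prph 1422530_at and 0.09, 0.09 and 0.11 for Vim. It was 0.33 for Nefh, 0.40 and 0.39 for Nes and 0.46 for Ina 1418178_at. Quantile normalisation gives the brightest ranks of all arrays shared values, and its part in the small spreads of bright members was not tested. Since bright probe sets have small spreads, each was set beside tested probe sets within 0.5 log2 units of its own mean, a comparison chosen after the Ina values were seen. Ina 1418178_at stood above the median of 0.11 there, and 11 of the 1065 probe sets of its range had a larger one. Nefh had a spread at or above 85.5% of the probe sets of its range, the Nes probe sets above 91.5% and 83.1%, and Ina 1448991_a_at above 90.2%. Those of Vim stood above 73.5%, 62.6% and 70.6%, Prph 1422530_at above 67.9% and Nefl 1454672_at above 62.4%. Ina 1448992_at stood above 76.9% and Prph 1420256_x_at above 55.5%, while Nefm stood above 21.98% and Nefl 1426255_at above 21.3%.

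**Figure D4:**
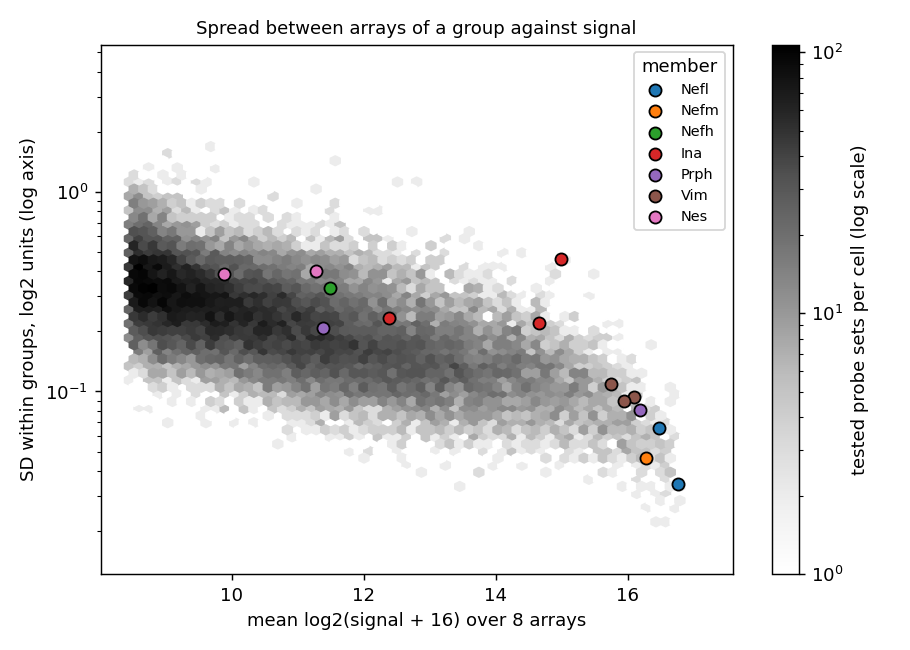
SD within groups (log axis, log2 units) against mean log2(signal + 16) over the 8 arrays; grey cells count all 27022 tested probe sets on a log scale and coloured points are the 14 tested member probe sets. Ina 1418178_at stands at 0.46, above nearly all probe sets of its signal range, and Nefl 1426255_at stands at 0.03 at the bright end.

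Proteins that build, anchor, modify or carry intermediate filaments were listed beside the members. Of 38 such partner genes, 32 were on the array with a name of their own and 28 were tested. Limma called 0 of them after adjustment over all probe sets. An unadjusted limma p under 0.05 was met by 1 of the 28, against 476 of all 12763 genes. In the brightest probe set of each gene 16 of 28 were higher and 12 lower in Exp, with a median of 0.01 log2 units, beside 45.2% higher and a median of -0.01 over all 12763 genes. Among the linkers, the plakins Dst (dystonin, which ties filaments to other cytoskeletal polymers in sensory neurons), Macf1 and Plec differed by 0.15 (SE 0.09), 0.05 (SE 0.09) and 0.07 (SE 0.13). The lamins of the nuclear envelope, Lmna, Lmnb1 and Lmnb2, differed by -0.00 (-0.0014, SE 0.17), -0.11 (SE 0.17) and 0.17 (SE 0.15).

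The partner with the smallest p was Cryab, a small heat shock protein that binds filaments of the desmin and vimentin class. It gave 2228, 2776, 2546 and 3065 on Exp 1 to 4, against 2434, 1992, 1729.5 and 1569 on Ctrl 1 to 4, a difference of 0.46 (SE 0.16, limma unadjusted p = 0.0184, adjusted p = 0.999). Exp 2, Exp 3 and Exp 4 stood above all Ctrl arrays and Exp 1 stood below Ctrl 1. Cdk5r1, the activator of a kinase that phosphorylates neurofilament tails, differed by 0.26 (SE 0.12), and the kinase Cdk5 itself by -0.17 (SE 0.11). Gsk3b, another neurofilament kinase, differed by 0.36 (SE 0.17). It was the only 1 of the 28 tested partners whose groups did not overlap after normalisation, against 287 of all 12763 genes. It had 10703, 9291, 15715 and 9223 on Exp 1 to 4 and 7344, 9390.0, 9329 and 8719 on Ctrl 1 to 4 as deposited, where they do overlap. Sync, a filament protein of muscle, differed by 0.36 (SE 0.18). The axonal motors Kif5a, Kif5b and Kif5c, known carriers of filament cargo, differed by -0.11 (SE 0.11), 0.15 (SE 0.15) and -0.01 (SE 0.09).

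Keratins are the filaments of epithelia. Of 14 listed, all were on the array and 4 were tested, with 2 higher and 2 lower in Exp and a median of -0.02. Krt5, of basal epithelium, gave 490.1, 1050.4, 932.5 and 394.5 on Exp 1 to 4, against 424, 327, 346 and 424 on Ctrl 1 to 4. Exp 2 and Exp 3 were high and Exp 4 lay within the Ctrl range, a difference of 0.72 (SE 0.31, limma unadjusted p = 0.0453, adjusted p = 0.999). Krt1, of differentiated epidermis, differed by -0.45 (SE 0.22), Krt10 by -0.13 (SE 0.10) and Krt18 by 0.09 (SE 0.15).

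**Figure D5:**
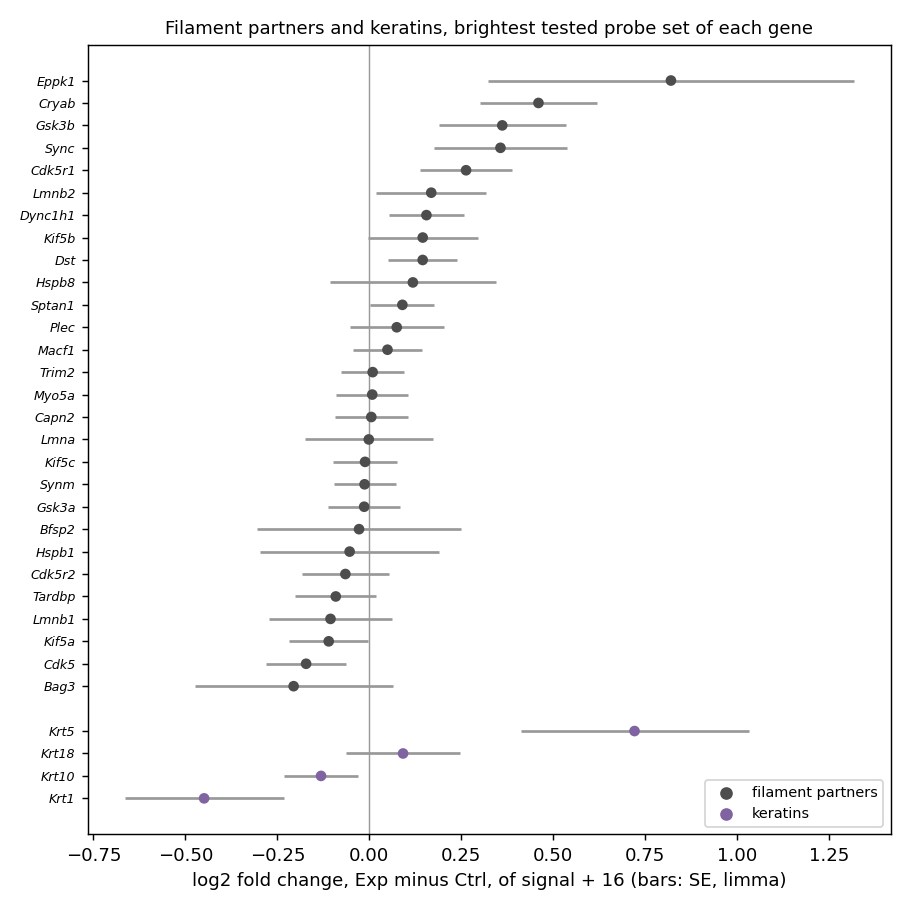
Log2 fold change, Exp minus Ctrl, of signal + 16 with its SE (bars, limma) for the 28 tested filament partners (dark points) and 4 tested keratins (violet points), 1 probe set per gene. Most partners stand between -0.2 and 0.2, Eppk1, Cryab and Krt5 stand further to the right with wider bars, and none passed the adjusted threshold.

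Of 16 listed marker genes of sensory neurons, 15 were on the array with a name of their own. All 15 were tested, with a median difference of 0.00 log2 units (9 higher, 6 lower). The transcription factors Pou4f1 and Isl1 led this list by signal, and differed by 0.08 and 0.00. An unadjusted limma p under 0.05 was met by 476 of all 12763 genes, and groups that did not overlap by 287. The 1 gene of the list with such a p was Uchl1, a neuronal ubiquitin hydrolase, named after its values were seen. It gave 4797, 4508, 4657 and 4674.5 on Exp 1 to 4, against 6145, 9385, 10487 and 5664 on Ctrl 1 to 4, so that all Exp arrays lay below all Ctrl arrays, a difference of -0.69 (SE 0.19, limma unadjusted p = 0.00615, adjusted p = 0.999). Of markers for the tissues in the other label field, central neurons and glia had 3 of 11 genes tested, and chromaffin and sympathetic cells 6 of 10. Adrenal cortex, the neighbour of the medulla, had 3 of 7. Over the whole array 12763 of 18193 genes had a tested probe set, and passing the filter is not a detection call. Limma called 0 genes in each of the marker lists. Neural progenitor and crest markers, the cells of Vim and Nes, had 8 of 12 tested genes higher in Exp and a median of 0.05. Schwann cell markers had 10 of 11 tested genes lower in Exp (median -0.26) and satellite glia 6 of 8 (-0.16), whereas muscle markers had 13 of 14 higher (0.61), epithelial 7 of 8 (0.37) and fibroblast 8 of 11 (0.14). Over all genes tested 45.2% were higher in Exp. The Schwann and satellite lists share Sox10 (-0.33) and Cdh19 (-0.24), both lower in Exp, so their counts are not separate.

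The list mean of the Schwann markers ran from -0.41 to -0.04 log2 units on Exp arrays and from 0.00 to 0.38 on Ctrl arrays. The groups thus did not overlap, but Exp 4 (-0.04) and Ctrl 2 (0.00) lay close. Of the 11 tested genes, 0 separated the groups alone. The list was chosen with earlier results of these data known, so this separation is not an independent result. The list mean includes Egr2, which differed by -2.66 (SE 0.97) and varied widely within both groups. Their summed normalised level, in which Gap43, also listed for sensory neurons, has the highest signal, overlapped and ran from 102352 to 119687 on Exp arrays and from 118093 to 133614 on Ctrl arrays, and that of the fibroblast markers from 107955 to 185305 on Exp and from 121476 to 159880 on Ctrl arrays. Muscle markers summed to between 6153 and 66704 on Exp arrays and between 8059 and 12827 on Ctrl arrays. Their list mean was highest on Exp 3 (1.68 log2 units above the mean of the arrays) and lowest on Exp 4 (-0.75). Among the Exp arrays Nes 1449022_at was highest on Exp 3 and lowest on Exp 4, but Nes 1418289_at was highest on Exp 2 and lowest on Exp 1. The fibroblast list was highest on Exp 2 (0.47) and lowest on Exp 1 (-0.28). The epithelial list was high on Exp 3 (0.72) and Exp 2 (0.54), and lowest on Exp 4 (-0.52), below every Ctrl array. After normalisation Vim 1438118_x_at was highest among the Exp arrays on Exp 2, the other Vim probe sets were highest on Exp 1, and all 3 were lowest on Exp 3. The part of these cell types in the member signals was not tested. Of the remaining lists, endothelial and mural markers had 4 of 10 tested genes higher, macrophage markers 2 of 8 and erythroid markers 2 of 4.

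Genes with the pattern most like each member over the 8 arrays were found by Pearson's r of log2 values among 12756 other genes, each read by its brightest tested probe set. They were Sh3bp4 (0.975) and Abhd18 (0.950) for Nefl, Get3 (0.981) and Fau (0.976) for Nefm, and Xxylt1 (0.976) and Tmem127 (0.960) for Nefh. For Ina 1418178_at they were Oxnad1 (0.969) and Trmt2a (0.952), for Prph Tomm70a (0.981) and Zfp583 (0.937), for Vim Plgrkt (0.962) and Lef1 (0.957), and for Nes Haus1 (0.972) and Pomp (0.968). No member was compared with itself or with another member. Each r is the highest of many over only 8 arrays that share their scaling, and is given as a description.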

How the data were processed

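The deposited values were linear intensity, 1 value for each probe set on each array. The steps by which the authors summarised probes and scaled arrays are not given in the sources used here. The mean without the lowest and highest 2% was 2500 on every array, as global scaling gives, so differences are relative to the bulk of probe sets. The median signal ran from 478 to 553, and the actin control read at its 3' end over its 5' end gave a ratio from 20.9 to 25.5 on Exp and from 19.8 to 22.0 on Ctrl arrays. The 5' end of actin thus read far lower than its 3' end on every array. How such a loss bears on member probe sets that disagree was not tested. All columns were mapped to samples through the titles.

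Signals were taken as log2(signal + 16) and quantile normalised, since array medians spanned 0.203 log2 units. The 64 control probe sets and those under the 40th percentile were left out. The Exp minus Ctrl difference was tested two-sided with limma 3.58.1 (R 4.3.3), with Benjamini-Hochberg adjustment over 27022 probe sets. The fit was tested on simulated data. Names came from the platform annotation, updated by Entrez identifier through RefSeq (GRCm38.p6): 34945 probe sets carried 1 name (34741 matched), 932 several and 9160 none. The files name no build, so that table gave names, chromosomes and gene order only. Where 1 probe set per gene was needed, the brightest was used.

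The members and the 15 gene lists were chosen with earlier results of these data known. Besides members and called probe sets, the genes named were the 4 partners and keratins of smallest p, the 2 brightest sensory neuron markers and the 2 genes most like each member. Partners named beyond these (Dst, Macf1, Plec, the lamins, Cdk5, the Kif5 genes, Eppk1) and markers (Uchl1, Gap43, Sox10, Cdh19, Egr2) were chosen after their values were seen. Over all tested probe sets, same-numbered arrays did not deviate together (correlations 0.02, 0.05, -0.07 and -0.12 for numbers 1 to 4), and no pairing was assumed. Such correlations cannot exclude a pairing that touches few genes. Alternatives were pseudocounts of 1 and 64, no filter, a 60th percentile filter, other scalings, a replicate block, trend and robust options, array weights, leaving out arrays, and averaging the tested probe sets of each gene. Figures used matplotlib 3.10.9.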

Additional observations from a re-analysis of the deposited data

Results flagged for a closer look

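In each group of 4 arrays, the member probe sets, the 8 partners and keratins of smallest p and the 15 list means were searched for 1 value set far apart, by a gap to its nearest neighbour above Dixon's 95% critical share of the range. Of 80 groups 3 met this, where chance gives about 1 in 20 or 4.00 groups, and all 3 belonged to Ina. Exp 3 stood at 14.3 log2 units for Ina 1418178_at, the other Exp arrays at 15.16 to 15.24. Ctrl 3 stood at 14.29 for the same probe set, the other Ctrl arrays at 15.17 to 15.30. Ctrl 3 stood at 11.91 for Ina 1448992_at, the other Ctrl arrays at 12.49 to 12.55.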

How the results depend on the processing

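The count of member probe sets called was 0 under all 18 alternatives, and the 14 tested probe sets kept an adjusted limma p of 0.764 or above over the resulting 252 differences. The sign of a difference that was not called turned in 35 of these, and 4 probe sets kept theirs throughout (Prph 1420256_x_at, Vim 1450641_at and both of Nes). Nes 1449022_at ran from -0.50 without Exp 3 to -0.17 without Exp 4, and Nes 1418289_at from 0.09 without Ctrl 1 to 0.39 without Ctrl 4. Without quantile normalization Nefl 1426255_at stood at 0.07 (SE 0.11, beside 0.08 in the main fit). Prph 1422530_at stood at 0.07 as well (SE 0.10, beside 0.09). Averaging the tested probe sets of each gene gave -0.10 (SE 0.10) for Prph and 0.03 (SE 0.13) for Ina. Over all probe sets, the count called was 1, and it was 0 with no filter, with the filter at the 60th percentile and without both arrays numbered 3, and between 0 and 1 without 1 array (0 in 7 of 8); the cause was not tested. With the replicate number as a block, although no pairing was assumed, it was also 0, and the block called 0 members. The SE of Ina 1418178_at was 0.10 with the block and 0.28 without it, while those of the other tested members rose or fell less. Signals of 4 arrays per group limit precision, and no detection call was used here.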

Other observations

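The drop of Ina 1418178_at on both arrays numbered 3 was looked up in the rest of the table, after it had been seen. Tested probe sets on which both arrays of 1 number lay at least 0.5 log2 units below the 6 others numbered 9 for number 1, 16 for number 2, 16 for number 3 and 18 for number 4. Those lying as far above numbered 9, 10, 5 and 4 in the same order.

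By chromosome in RefSeq, the 14 named and placed probe sets that were low or high on both arrays numbered 3 included 5 on chromosome 19 (35.7%), which holds 3.46% of all tested probe sets with a placed gene. The other numbers had a leading chromosome too. Number 4 had 6 of 16 on chromosome 5 (37.5%, which holds 6.40% of all) and number 1 had 3 of 13 on chromosome 1 (23.1%, which holds 6.12%). Number 2 had 6 of 19 on chromosome 16 (31.6%, which holds 3.57%), but 3 low and 1 high of these read a single gene, Pdxdc1. The 5 of number 3 read 5 genes. Those of number 3 on chromosome 19 read Arhgap19, Exosc1, Hps1, Scd2 and Ina, which stand in that order within a stretch of 160 genes of the table. The ends of that stretch were set by these genes. It held 123 tested probe sets of 72 genes, of which these 5 were low or high. Over the 123 the median difference of the arrays numbered 3 from the others was 0.01 log2 units. Exosc1, a subunit of the RNA exosome, had signals of 1178, 1272, 50.0 and 886 on Exp 1 to 4, against 785, 992, 82.1 and 1173 on Ctrl 1 to 4. Arhgap19 gave 1091, 847, 323 and 789.8 on Exp 1 to 4 and 1299.5, 537, 83.6 and 1019.6 on Ctrl 1 to 4. Hps1, a gene of lysosome-related organelles, gave 1678, 1776, 880.5 and 1851.5 on Exp 1 to 4 and 2216, 1718, 994 and 1645 on Ctrl 1 to 4. For Scd2, a fatty acid desaturase, the probe set found here was high instead. It gave 3992, 3963, 10409.5 and 4522 on Exp 1 to 4 and 3491, 4811, 7058 and 4115 on Ctrl 1 to 4. Its SD within groups was 0.57 log2 units at a mean of 12.27. A brighter Scd2 probe set, at a mean of 16.16, had an SD of 0.07, too small to hold a shift of that size. A dimmer one, at a mean of 9.55, had an SD of 0.41. The high signal is thus that of 1 probe set. Whether a probe set as bright as 16.16 can show such a shift, and whether Scd2 as a gene was high, was not tested.

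Exp minus Ctrl of these 5 probe sets was within 1 SE of 0, at -0.08 (SE 1.08) for Exosc1, 0.38 (SE 0.74) for Arhgap19, -0.11 (SE 0.28) for Hps1, 0.17 (SE 0.34) for Scd2 and -0.04 (SE 0.28) for Ina. The 5 probe sets were picked for a shift shared by 1 Exp and 1 Ctrl array. Such a shift cancels in Exp minus Ctrl and widens the SE, so this outcome was largely set in advance. On other chromosomes, 3 probe sets of Pdxdc1 were low and 1 was high on both arrays numbered 2, so that probe sets of 1 gene parted there as they did for Ina. What sets these arrays apart at these genes was not tested.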
